A study of Mus musculus with 24 samples.

Results

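Gabre encodes the epsilon subunit of the GABA-A receptor and is the gene that carries the hairpins of miR-224 and miR-452 in 1 of its introns. It is described here in fat with 4 further subunit genes, Gabra3 and Gabrq, its neighbours on the X chromosome, and Gabra4 and Gabrp, which lie on other chromosomes. These 5 genes were listed by name, not by their values, and are 5 of 30699 gene identifiers in the deposited tables. Libraries of RNA with poly(A) tails were made from 2 fat tissues of C57BL/6 mice, white (WAT) and brown (BAT). Every mouse had been injected 2 times under the skin with 25 mg/kg of an oligonucleotide modified with locked nucleic acid. In antimiR-224 mice its target was miR-224, in antimiR-452 mice it was miR-452, and in scramblemiR controls the sequence was scrambled, which gives 6 groups of 4 libraries, 24 in all. The labels give no depot, sex or age, do not say which arm of either microRNA was inhibited, and do not tie libraries to single mice. The p-values therefore measure the spread between these libraries, which may be technical. Some library numbers in the column headers recur in WAT and BAT of the same treatment, so the tissues may share mice, which the labels do not state.

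GABA-A receptors are ion channels built from several subunits that let chloride through when they bind gamma-aminobutyric acid (GABA). They are best known from inhibitory synapses. The epsilon and theta subunits, encoded by Gabre and Gabrq, are known mainly from the hypothalamus and brainstem, and the pi subunit, encoded by Gabrp, mainly from reproductive and other epithelia. A microRNA inside an intron can be cut from the transcript of its host gene. An antimiR then pairs with the mature microRNA, whose seed, the stretch next to its 5′ end, guides it to sites in the 3′ untranslated regions (UTRs) of other transcripts.

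Gabre (ENSMUSG00000031340) lies on the minus strand of chrX:72255999-72274803, GRCm38, and its transcript Gabre-201 has 9 exons. Both hairpins lie on the same strand in the 3878 bases of the intron between exons 6 and 7. The mir-452 hairpin, chrX:72262224-72262308, comes first, 136 bases after exon 6. The mir-224 hairpin, chrX:72261031-72261112, follows after 1111 bases and lies 2464 bases before exon 7. The hairpins are printed 5′ to 3′ because they are what Gabre hosts and what the inhibitors were directed against. They come from RefSeq (build GRCm38.p6), and capitals mark both mature arms of each.
mir-224 hairpin: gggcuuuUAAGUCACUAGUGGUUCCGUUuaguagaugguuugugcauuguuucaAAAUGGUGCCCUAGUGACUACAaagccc
mir-452 hairpin: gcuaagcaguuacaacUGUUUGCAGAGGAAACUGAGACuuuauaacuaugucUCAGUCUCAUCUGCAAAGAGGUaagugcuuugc

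**Figure D1:**
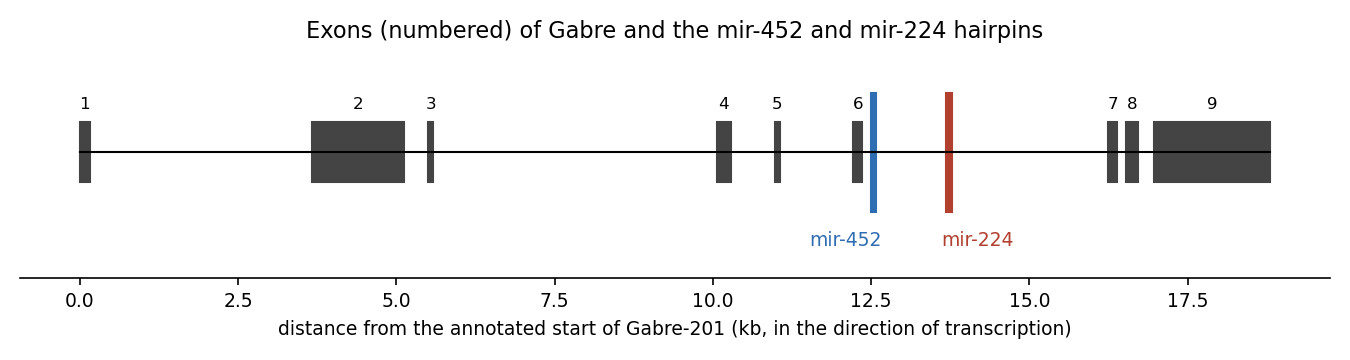
Map of the Gabre-201 transcript, with the distance from its annotated start in kb on the x axis, exons as grey boxes and the 2 hairpins as coloured bars. Both hairpins lie in the intron between exons 6 and 7, mir-452 136 bases after exon 6 and mir-224 1332 bases after it.

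The 4 mature arms follow, with the seed (bases 2 to 8) in capitals. No seed is shared: each of the 4 occurs in only 1 of the 1738 mature mouse microRNAs of the RefSeq table, so the microRNAs share a host but not a seed.
mmu-miR-224-5p: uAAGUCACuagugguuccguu
mmu-miR-224-3p: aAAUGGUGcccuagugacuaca
mmu-miR-452-5p: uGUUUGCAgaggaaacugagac
mmu-miR-452-3p: uCAGUCUCaucugcaaagaggu

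The 3′ UTRs of the 5 subunit transcripts were searched, on the transcript strand, for the reverse complement of each seed. For miR-224-5p that is GTGACTT and for miR-224-3p CACCATT. For miR-452-5p it is TGCAAAC and for miR-452-3p GAGACTG. Gabre itself held 1 match, to miR-224-5p, from base 715 of a UTR of 1453 bases. Gabrq held 1 match, to miR-452-5p, from base 2211 of 3087 bases. Gabra3, Gabra4 and Gabrp held no match to any of the 4 seeds. The 2 matches are shown in capitals with the bases around them, since they are where an inhibited microRNA would pair with these transcripts by its seed.
Gabre 3′ UTR and miR-224-5p: taacttccccaGTGACTTtccc
Gabrq 3′ UTR and miR-452-5p: catagcaaggcTGCAAACtctt
Such matches are common. The miR-224-5p match occurred in 14.5% of 3128 genes with 3′ UTRs of a length like that of Gabre (12.8% of 21020 genes of any length), and the miR-452-5p match in 20.3% of 2380 genes like Gabrq (9.74% of all). A match describes letters in a transcript and does not show that the site is used.

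Mature microRNAs carry no poly(A) tail and are not measured by these libraries. The row of the Mir224 gene held 1 read, in a WAT antimiR-224 library, and that of Mir452 held 1 read, in a WAT antimiR-452 library. Gabre transcript is therefore the one readout of this locus here, and neither inhibition nor processing of the hairpins could be checked.

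The deposited tables give group means, and whole reads per library were recovered from them. The WAT scramblemiR libraries held 22175430 to 27935908 reads in genes, and those of BAT 16960694 to 20255777. Recovered reads cannot be tied to sample titles, so libraries are numbered in each group by descending size factor, the scaling factor of a library. Some libraries stood apart. In WAT, antimiR-224 libraries 1 and 2 and antimiR-452 libraries 1 to 3 were high in epithelium genes, and antimiR-224 libraries 3 and 4 and scramblemiR library 2 were high in sperm-lineage genes. The limit for both was a geometric mean of 100. WAT scramblemiR library 4, at 97.7 over 8 simple epithelium genes, lay just under it and was kept. The other WAT scramblemiR libraries were at 6.45 to 22.4. Epididymis markers summed to 3744 normalised reads in antimiR-224 library 2 and 819.7 in antimiR-452 library 1, against 1.13 to 109.9 in the other 10 WAT libraries. Skeletal muscle markers summed to 9712 in WAT antimiR-452 library 3, against 110 to 372.6 in the other 11. In BAT, library 1 of each group and scramblemiR library 2 were high in skeletal muscle genes, with geometric means of 116.7 to 538.2 over 10 less abundant muscle genes. BAT antimiR-452 library 4, at 29.53, lay just under the limit of 30 and was kept where muscle-high libraries were left out, while the others were at 8.17 or lower. As checks of the tissue labels, the brown fat gene Ucp1 was at 0.0259 to 4.44 RPKM in WAT and at 1454 to 4452 RPKM in BAT scramblemiR libraries, and Lep, which encodes leptin, averaged 86.1 RPKM in WAT and 0.985 RPKM in BAT. RPKM is the number of reads per kilobase of annotated exons, scaled to the reads in genes of the library.

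In scramblemiR controls, all 4 subunit genes that could be tested, Gabra4 only through its WAT reads, were higher in WAT than in BAT. The differences were 5.20-fold for Gabre, 12.3-fold for Gabra3, 11.2-fold for Gabrq and 21.2-fold for Gabra4 on the scale of log2(normalised reads + 1). Gabrp, encoding the pi subunit, had 0 reads in the WAT controls and was not tested. Among all 21047 genes tested, 35.7% were called in either direction and 19.7% were called higher in WAT, at an adjusted p of at most 0.05 (limma, Benjamini-Hochberg). How many of all genes have no overlap between the tissues was not counted. The lack of overlap given below for members is therefore not shown to be unusual. The median difference of the 4 members was 3.56 on the log2 scale, beside 0.12 for all genes.

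Gabre, scaled jointly over the 8 control libraries, was at 108.6, 100.4, 151.2 and 86.5 normalised reads in WAT and at 34.8, 25.6, 24.3 and 7.39 in BAT. Every WAT library was above every BAT library, and the lowest value of all was that of BAT library 4. The log2 difference was 2.38 (SE 0.44, 95% interval 1.39 to 3.36, limma adjusted p = 0.00236), with the direction shown by 4 of 4 WAT libraries. A two-sided exact permutation test gave p = 0.0286, the smallest that 4 against 4 libraries allow, and 0.143 after adjustment over the 5 such tests made for Gabre. In reads the counts were 610 in WAT and 70 in BAT, a scaled ratio of 4.73 with an exact interval of 3.69 to 6.15 that covers counting error only.

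Gabra3 (ENSMUSG00000031343, chrX:72432681-72656848, minus strand) encodes the alpha-3 subunit and lies 158 kb from Gabre. It was at 509.5, 415, 437 and 161 normalised reads in WAT and at 38.5, 30.7, 21.4 and 22.2 in BAT. The groups were far apart even though WAT library 4 was well below the other 3. On the log2 scale the difference was 3.63 (SE 0.37, limma adjusted p = 9.0e-05), with 2140 reads in WAT and 85 in BAT.

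Gabrq (ENSMUSG00000031344, chrX:72825178-72842602, plus strand), encoding theta, lies 550 kb from Gabre. It was at 37.3, 21.2, 68.3 and 10.2 normalised reads in WAT and at 3.73, 2.56, 0 and 1.48 in BAT. The groups did not overlap, but WAT spread widely and BAT rested on 6 reads. This is a log2 difference of 3.49 (SE 0.69, limma adjusted p = 0.00342).

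Gabra4 (ENSMUSG00000029211, chr5:71569749-71658308, minus strand) encodes the alpha-4 subunit. It was at 55.6, 41.0, 30.3 and 5.09 normalised reads in WAT, and 1 of the 4 BAT libraries held its only read there. WAT library 4 was again the lowest, by a wide margin. With means of 33.0 in WAT and 0.310 in BAT, Gabra4 reached the mean of at least 1 that testing required only through WAT. A gene so low in BAT could enter the test only by being high in WAT. The log2 difference was 4.41 (SE 0.73, limma adjusted p = 0.00124), but its size depends on the pseudocount, at 5.20 with 0.5 and 2.58 with 5, and it was 5.10 without WAT library 4. The ratio of the 190 reads to 1 was 103, with an exact interval of 18.3 to 4093. The start of Gabra4 overlaps Gabrb1 on the opposite strand, and since it is not stated whether counting used strand, reads in the overlap cannot be told apart.

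**Figure D2:**
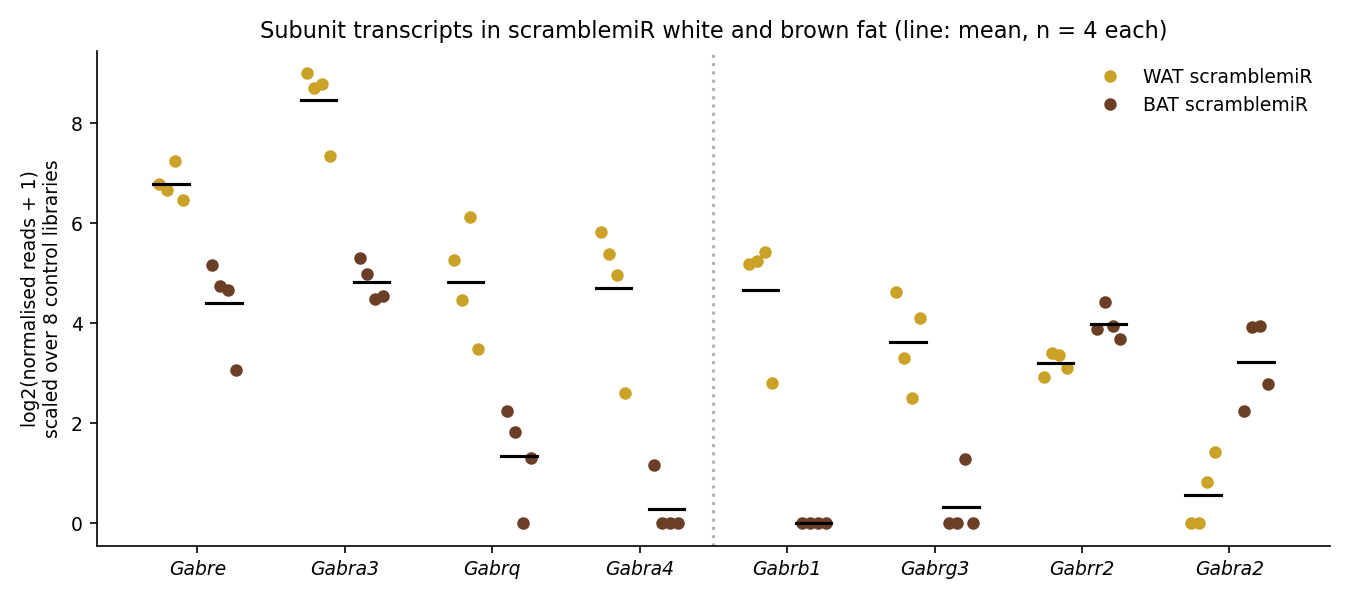
Transcript levels of 8 GABA-A subunit genes in the 4 WAT and 4 BAT scramblemiR libraries, as log2(normalised reads + 1) on the y axis, with points for libraries and lines for means. Left of the dotted line all 4 WAT values of Gabre, Gabra3, Gabrq and Gabra4 are above all 4 BAT values, and Gabra2, on the right, runs the other way. How many of all genes separate in this way was not counted.

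Per kilobase of exons the order of the members was the same in both tissues. In WAT controls Gabra3 averaged 5.58 ± 2.31 RPKM, Gabre 1.34 ± 0.321, Gabrq 0.360 ± 0.252 and Gabra4 0.315 ± 0.205 (SD, n = 4). In BAT controls the same genes averaged 0.284 ± 0.0838, 0.194 ± 0.0985, 0.0142 ± 0.0119 and 0.00206 ± 0.00411 RPKM. Gabrq and Gabra4 in WAT, and Gabra3 and Gabre in BAT, differed by less than their spread. The host transcript was second to that of alpha-3 in WAT.

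The scaling bears on the size of the tissue difference. Scaled by total reads in genes, the median difference of all genes was 0.61 in place of 0.12 on the log2 scale. Calls were then 7888 higher and 1702 lower in WAT, so that 82.3% of calls were higher, against 55.1% with joint size factors. The members stood at log2 differences of 2.89 (Gabre), 4.14 (Gabra3), 3.89 (Gabrq) and 4.69 (Gabra4) with that scaling. In bulk tissue, fewer cells that express a gene and less RNA of it per cell cannot be told apart.

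Marker lists of other cell types moved with the tissue too. Summed mesothelium markers (8 of 8 measured) ran from 1898 to 13610 normalised reads in WAT controls and from 97.1 to 222 in BAT controls, where Upk1b and Wt1 were at 0. The lowest WAT mesothelium sum was in library 4, which was also the lowest WAT library in all 4 members. Mesothelium was not the only such list. Library 4 was also the lowest WAT control in neuron, Schwann cell, macrophage, tubule epithelium, smooth muscle and skeletal muscle sums. It was the highest in simple epithelium, mammary luminal, white adipocyte and brown adipocyte sums. Not all of this held over the markers recovered in every WAT library. Among the controls, library 4 was then the highest in tubule epithelium (375.2, 9 of 12 markers). Library 1 was then the lowest in smooth muscle (730.2, 2 of 6) and the highest in mammary luminal (1761, 4 of 8). Simple epithelium markers (11 of 12) summed to 1157 to 2128 in WAT and 29.98 to 44.8 in BAT, with Cldn7 at 0. Neuron markers (9 of 10) summed to 262 to 393 in WAT and 97.6 to 144 in BAT, with Snap25 at 0. Macrophage markers (6 of 6) summed to 9827 to 13570 in WAT and 2027 to 4371 in BAT. Schwann cell markers (8 of 8) ran the opposite way, with sums of 574.3 to 1181 in WAT and 2497 to 4649 in BAT. The tubule epithelium sum (9 of 12) was 961.1 to 1751 in WAT and 9270 to 24870 in BAT, where it rested on Slc4a4. Without Slc4a4 the other 8 markers summed to 1.107 to 11.58 in BAT controls, as scaled over the 12 BAT libraries. In WAT controls 9 markers without Slc4a4 summed to 113.3 to 375.2, as scaled over the 12 WAT libraries. The part of these cell types in the result was not tested. Without both BAT controls high in muscle genes, the log2 difference of Gabre was 2.92 (limma adjusted p = 0.00395) and those of the other 3 members were 3.94 to 4.70.

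Other subunits did not all follow. Of 14 further subunit genes 11 had rows and 9 could be tested between the tissues. Gabrb1, the beta-1 subunit, rose to 169 reads in WAT, against 0 in BAT, which is at least 30.6-fold when a floor of 3 counts over the group is set against it (limma adjusted p = 0.000437). Gabrg3, the gamma-3 subunit, had 74 reads in WAT and 1 in BAT, a scaled ratio of 40.2 with an exact interval of 6.99 to 1607 (limma adjusted p = 0.00244). Gabra2, the alpha-2 subunit, fell to 3 reads in WAT, against 28 in BAT, a scaled ratio of 0.0581 with an exact interval of 0.0113 to 0.188 (limma adjusted p = 0.00756). Gabrb1 and Gabrg3 reached the mean of at least 1 that testing required only through WAT, and Gabra2 only through BAT. The rho-2 subunit Gabrr2 had 45 reads in each tissue and was not called (log2 -0.78, limma adjusted p = 0.142). The remaining 5 tested subunits, which include delta, beta-3 and alpha-1, each had 21 reads or fewer in either tissue and none was called.

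Along the X chromosome the difference between tissues did not cover the whole neighbourhood. Prrg3, a membrane protein with a Gla domain 283 kb away, was higher in WAT (log2 2.94, SE 0.20, limma adjusted p = 1.2e-05), and Cnga2, an ion channel of olfactory neurons 246 kb away, had 27 reads in WAT and 0 in BAT, at least 4.88-fold. Cetn2, a centriole protein beyond Gabrq, was at log2 0.13 (limma adjusted p = 0.607), and Nsdhl, an enzyme of cholesterol synthesis next to it, at -0.73 (limma adjusted p = 0.216). Gm1141 had 140 reads in WAT and 5 in BAT (log2 1.69, limma adjusted p = 0.330). Most of its WAT reads were in library 2, which is high in sperm-lineage genes. Fate1, Magea4 and Magea10, the other coding genes among the 5 nearest on either side, had few reads.

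Neither inhibitor was followed by a called change of any member in either tissue. The limma test called 0% of genes, and 0 of 4 testable members in WAT and 0 of 3 in BAT, in each of the 4 comparisons with scramblemiR. The count over all genes depended on which WAT libraries entered. It was 1384 for antimiR-224 without the libraries rich in sperm-lineage transcripts and 457 for antimiR-452 without antimiR-452 library 4, with no member among them. In both fits the inhibitor libraries kept were all high in epithelium genes, and the part of this in the counts was not tested. At an unadjusted p under 0.05 there were 1039 genes in WAT after antimiR-224 (4.99% of those tested) and 896 after antimiR-452 (4.49%). In BAT there were 920 after antimiR-224 (5.59%) and 694 after antimiR-452 (4.15%), and no member was among them in either tissue. The authors' deposited table for WAT and antimiR-224 called 0.00343% of genes, which is 1 gene, and the other 3 called 0%. The unadjusted p in the authors' deposited tables was under 0.05 for 1.55% of genes in WAT after antimiR-224, 2.41% in WAT after antimiR-452, 1.15% in BAT after antimiR-224 and 0.499% in BAT after antimiR-452. The members' adjusted p was 1 throughout the authors' deposited tables. Within a tissue both comparisons use the same 4 scramblemiR libraries.

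In WAT, Gabre was at 210.1, 253.6, 150.5 and 136.3 normalised reads after antimiR-224, at 189.6, 144.5, 171.0 and 145.4 after antimiR-452 and at 146.9, 138.1, 203.3 and 117.2 with scramblemiR. The 3 groups overlapped, and the 2 highest antimiR-224 libraries were the 2 high in epithelium genes. After antimiR-224 the log2 difference was 0.29 (SE 0.26, 95% interval -0.29 to 0.88, limma adjusted p = 0.939, exact permutation p = 0.257). Without both libraries high in epithelium genes the antimiR-224 difference was -0.0495, and without those rich in sperm-lineage transcripts 0.60 (limma adjusted p = 0.264). The first of these fits kept only antimiR-224 libraries high in sperm-lineage genes, and the second only antimiR-224 libraries high in epithelium genes. After antimiR-452 the log2 difference was 0.11 (SE 0.22, 95% interval -0.39 to 0.62, limma adjusted p = 0.981, exact permutation p = 0.571), and 0.0871 without library 3, the one high in muscle markers.

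The epithelium values beside Gabre were these. Simple epithelium markers (8 of 12 recovered) summed to 5375, 7007, 1076 and 652 in the antimiR-224 libraries, 4065, 5251, 4471 and 542 in the antimiR-452 libraries and 436, 497, 565 and 1074 with scramblemiR. The markers were thus high in 2 antimiR-224 and 3 antimiR-452 libraries, with Gabre at 144.5 to 189.6 in those 3. What share epithelium has in the Gabre values was not tested.

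In BAT, Gabre was at 3.99, 18.4, 5.67 and 6.998 normalised reads after antimiR-224, at 54.8, 19.4, 1.003 and 17.6 after antimiR-452 and at 25.9, 19.3, 18 and 5.44 with scramblemiR. These stand for 38, 102 and 70 reads over the groups. The antimiR-224 libraries were mostly low and the antimiR-452 libraries spread from the lowest to the highest value of all, so every pair of groups overlapped. The log2 difference was -0.92 after antimiR-224 (SE 0.58, 95% interval -2.19 to 0.34, limma adjusted p = 0.803, exact permutation p = 0.229) and -0.13 without the libraries high in muscle genes. It was -0.17 after antimiR-452 (SE 0.92, 95% interval -2.23 to 1.88, limma adjusted p = 0.999, exact permutation p = 0.771). There the authors' deposited table has a log2 ratio of means of 0.43, with the opposite sign, and 64 of the 102 reads came from library 1. Without antimiR-452 library 4 the difference was -0.30.

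**Figure D3:**
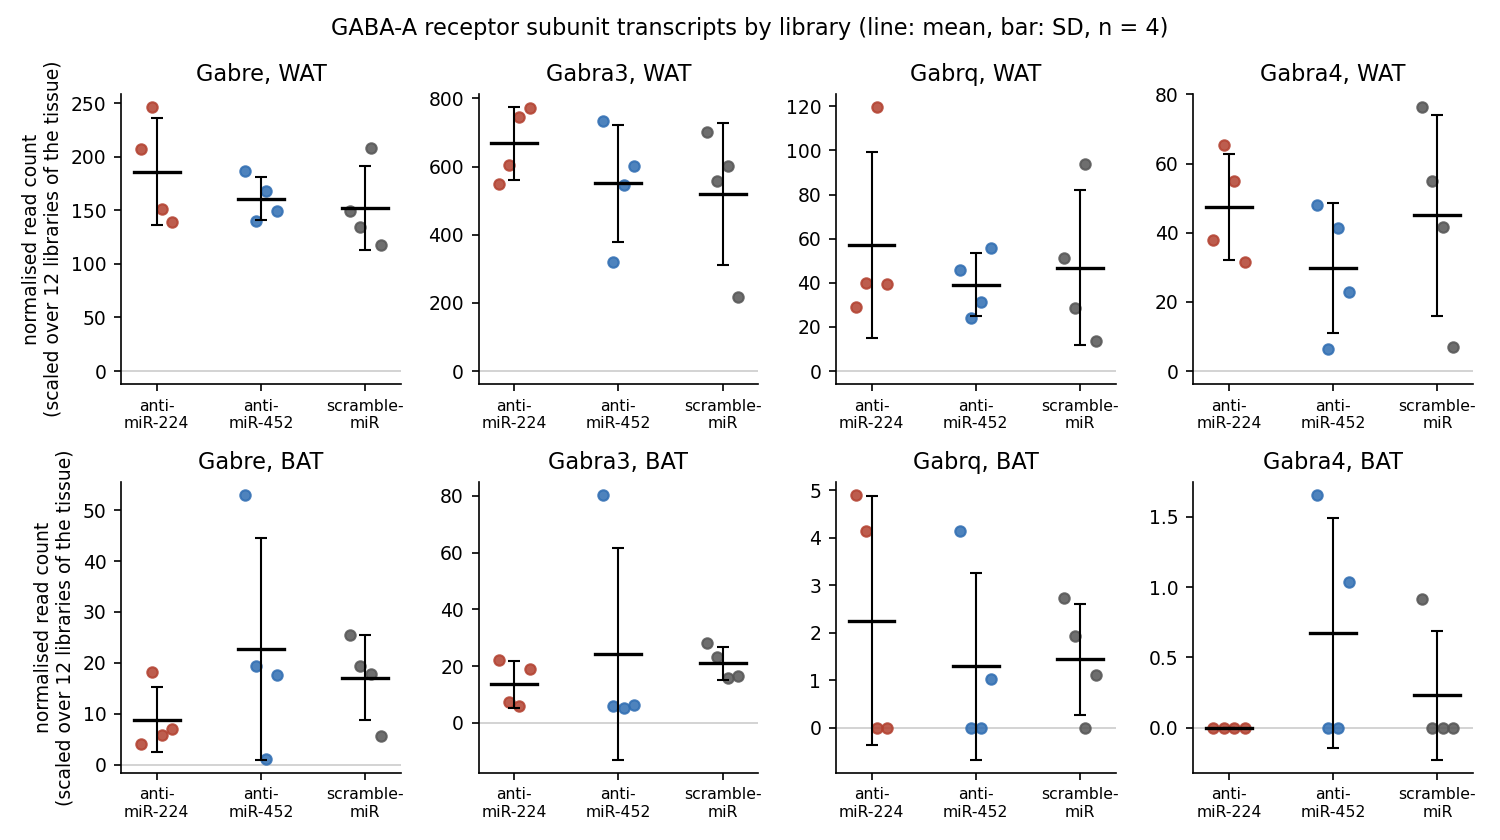
Normalised read counts of Gabre, Gabra3, Gabrq and Gabra4 in each library, scaled over the 12 libraries of a tissue, with WAT above and BAT below, points for libraries, lines for means and bars for the SD (n = 4). The 3 treatment groups overlap in every panel, and in BAT 1 antimiR-452 library stands above the others for Gabre and Gabra3.

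Gabra3 in WAT was at 556.2, 621.8, 739.6 and 757.0 normalised reads after antimiR-224, at 746.4, 329.0, 556.4 and 585.1 after antimiR-452 and at 689.4, 571.3, 586.9 and 218.2 with scramblemiR. The antimiR-224 group had no low library, while each of the other groups had 1. The log2 difference was 0.48 after antimiR-224 (SE 0.34, limma adjusted p = 0.937) and 0.16 after antimiR-452 (SE 0.38, limma adjusted p = 0.981), and without scramblemiR library 4 these were 0.11 and -0.21.

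Gabra3 in BAT was at 21.6, 7.52, 5.67 and 18.7 normalised reads after antimiR-224, at 83.1, 5.83, 5.02 and 6.20 after antimiR-452 and at 28.7, 23.2, 15.9 and 16.3 with scramblemiR. All antimiR-452 values but 1 were below the scramblemiR range, and that 1 was far above it. The log2 differences were -0.76 after antimiR-224 (SE 0.48, limma adjusted p = 0.803) and -0.78 after antimiR-452 (SE 0.80, limma adjusted p = 0.999). Library 1 of the antimiR-452 group, which holds the high Gabra3 and Gabre values, was also high in muscle genes, had the highest macrophage marker sum of its group (1826, against 378 to 601 in the other 3 libraries, 5 of 6 markers recovered) and the highest Lep value (494, against 30.02 to 116). Their part in the result was not tested. Without the libraries high in muscle genes, the Gabra3 difference after antimiR-452 was -1.37 (limma adjusted p = 0.940).

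Gabrq, which has the miR-452-5p seed match, was at 29.6, 40.8, 118.9 and 38.8 normalised reads in WAT after antimiR-224, at 46.3, 24.7, 31.7 and 54.4 after antimiR-452 and at 50.4, 29.1, 91.7 and 13.8 with scramblemiR. The 3 groups overlapped, with 1 high library each in the antimiR-224 and scramblemiR groups. The log2 difference was 0.0047 after antimiR-452 (SE 0.56, 95% interval -1.26 to 1.27, limma adjusted p = 0.9998) and 0.38 after antimiR-224 (SE 0.63, limma adjusted p = 0.965). With the sperm-lineage-high libraries left out, among them the highest one, the difference after antimiR-224 was -0.21. That fit kept only antimiR-224 libraries high in epithelium genes. In BAT Gabrq had 11, 6 and 6 reads over the antimiR-224, antimiR-452 and scramblemiR groups.

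Gabra4 in WAT was at 38.4, 67.0, 54.5 and 31.0 normalised reads after antimiR-224, at 48.9, 6.66, 42.2 and 22.2 after antimiR-452 and at 75.2, 56.4, 40.7 and 6.89 with scramblemiR. The lowest value of the antimiR-452 group was in library 2 and that of the scramblemiR group in library 4, the same libraries that were lowest in Gabra3. Both were also lowest in the summed mesothelium markers, of which 2 of 8 were recovered in every WAT library. These sums were 823, 794, 2742 and 1470 after antimiR-224, 916, 191, 809 and 1192 after antimiR-452 and 897, 1143, 1454 and 203 with scramblemiR. Both libraries were also the lowest of their groups in the summed macrophage and skeletal muscle markers, and the highest in the summed simple epithelium markers. What share mesothelium or another cell type has in these values was not tested. The log2 difference of Gabra4 was 0.43 after antimiR-224 (SE 0.68, limma adjusted p = 0.963), or -0.28 without scramblemiR library 4, and -0.49 after antimiR-452 (SE 0.82, limma adjusted p = 0.981), or 0.081 without antimiR-452 library 2. In BAT it had 0, 3 and 1 reads over the antimiR-224, antimiR-452 and scramblemiR groups and was not tested.

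Gabrp (ENSMUSG00000020159, chr11:33550781-33578959, minus strand) had a row in the WAT antimiR-224 table only, with 1 read in each of antimiR-224 libraries 1 and 2 and 0 in scramblemiR. Both are libraries high in epithelium genes. These 2 reads are a trace, a difference was not detectable at this depth, and no fold is given.

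**Figure D4:**
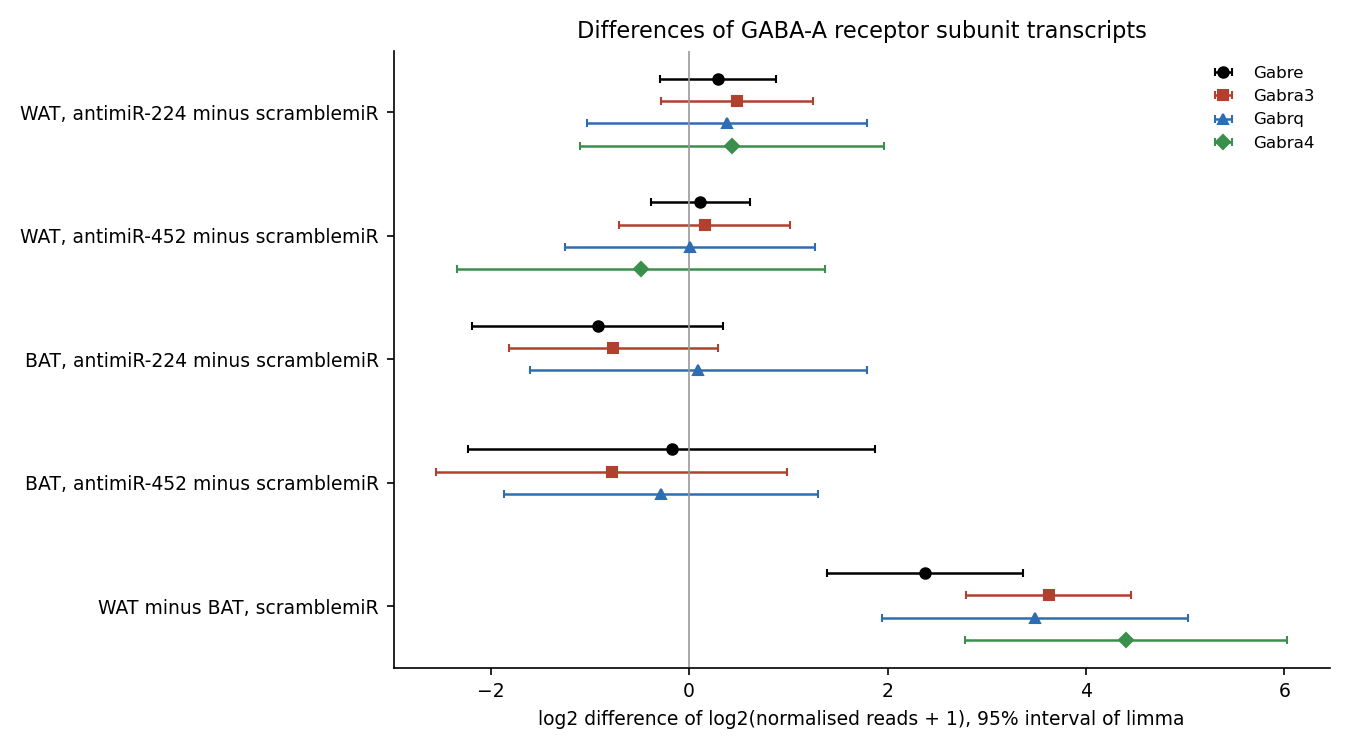
Differences of the subunit transcripts on the scale of log2(normalised reads + 1), with limma's 95% intervals, for the 4 comparisons with scramblemiR and for WAT minus BAT scramblemiR. The intervals of every comparison with scramblemiR include 0, and those between tissues lie above 0 for all 4 genes.

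The inhibitors were also set against each other and the effects compared between tissues, with 0% of genes called in each fit. An unadjusted p under 0.05 was found for 1.59% of genes between the inhibitors in WAT and 1.64% in BAT, and for 6.49% and 5.29% when the effects of antimiR-224 and antimiR-452 were compared between tissues. In WAT, antimiR-224 minus antimiR-452 gave Gabre a log2 difference of 0.18 (95% interval -0.33 to 0.68, limma adjusted p = 1), and in BAT -0.74 (95% interval -2.55 to 1.07, limma adjusted p = 1). With 1 library left out the WAT value ran from 0.030 (without antimiR-224 library 2) to 0.30 (without antimiR-224 library 4), and the BAT value from -1.68 (without antimiR-452 library 3) to -0.0989 (without antimiR-452 library 1). The antimiR-224 effect on Gabre in WAT minus that in BAT was 1.21 (95% interval -0.15 to 2.57, unadjusted p = 0.0771, limma adjusted p = 0.721). For Gabra3 the same term was 1.23 (95% interval -0.0094 to 2.48, unadjusted p = 0.0516, limma adjusted p = 0.721). For antimiR-452 the terms of Gabre and Gabra3 were 0.31 and 0.94, neither called.

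Of the other subunits none was called after either inhibitor. Gabrb1, whose 3′ UTR of 12228 bases holds 2 matches to the miR-224-3p seed and 1 to miR-452-3p, was at 72.4, 100.1, 59.99 and 36.6 normalised reads in WAT after antimiR-224, at 40.4, 10.5, 78.1 and 31.1 after antimiR-452 and at 47.8, 50.7, 56.3 and 8.04 with scramblemiR. The antimiR-224 libraries reached higher, and the groups overlapped (log2 0.93, limma adjusted p = 0.937, and -0.038, limma adjusted p = 0.997, after antimiR-224 and antimiR-452). Gabrg3, with 1 match to miR-224-5p, 3 to miR-452-5p and 1 to miR-452-3p in 7948 bases, was at log2 -0.70 after antimiR-224 (limma adjusted p = 0.939) and -1.12 after antimiR-452 (limma adjusted p = 0.981). UTRs as long as these often hold such matches. Among 53 genes with UTRs of a length like that of Gabrb1, 56.6% held the miR-224-3p match and 66.04% the miR-452-3p match. Among 308 genes like Gabrg3, the shares were 47.7% for miR-224-5p, 40.6% for miR-452-5p and 46.1% for miR-452-3p.

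A list of 30 genes linked to GABA held no called gene after either inhibitor. Most of them make, break down, carry or sense GABA, or traffic its receptors. The list also holds the chloride transporters Slc12a2 and Slc12a5 and the transcription factor Bhlhe22. The genes of the list named here have a p under 0.05, or a mean of at least 10 with a log2 ratio of 1 or more in size, in the authors' deposited tables. They were thus picked by these same data, and groups of theirs that do not overlap are no further evidence of a change. How many of all genes separate in this way was not counted. Plcl1, a protein that helps deliver GABA-A receptors to the membrane, was at 696.6, 347.8, 1012 and 346.9 normalised reads in WAT after antimiR-224, at 309.2, 320.4, 344.2 and 370.8 after antimiR-452 and at 192.0, 269.7, 258.5 and 152.8 with scramblemiR. Every inhibitor library was above every scramblemiR library. Differences on the log2 scale were 1.34 after antimiR-224 (unadjusted p = 0.00573, limma adjusted p = 0.937) and 0.65 after antimiR-452 (unadjusted p = 0.0121, limma adjusted p = 0.981), neither called. In the authors' deposited tables the unadjusted p of Plcl1 in WAT was 0.0145 after antimiR-224 and 0.264 after antimiR-452.

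In BAT Plcl1 was at 46.3, 56.8, 43.1 and 45.5 normalised reads after antimiR-224 and at 159.0, 127.7, 67.8 and 66.3 with scramblemiR. There every antimiR-224 library was below every scramblemiR library, and the 2 highest scramblemiR values were in the libraries high in muscle genes (log2 -1.02, unadjusted p = 0.0100, limma adjusted p = 0.803). The antimiR-224 effect on Plcl1 in WAT minus that in BAT was 2.33 (unadjusted p = 0.000216, limma adjusted p = 0.721) and was not called. After antimiR-452 Plcl1 ranged in BAT from 23.1 to 303.3.

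Abat, the enzyme that breaks down GABA, was at 1513, 1573, 1022 and 1360 normalised reads in WAT after antimiR-224 and at 764.6, 992.3, 857.9 and 404.3 with scramblemiR. The groups did not overlap (log2 0.91, unadjusted p = 0.00920, limma adjusted p = 0.937). In the authors' deposited table for antimiR-452 its WAT means were 1364 and 759 (adjusted p = 0.604), with the same 4 scramblemiR libraries. Gad1, which makes GABA, was at 37.5, 35.95, 0 and 0 after antimiR-224, at 21.1, 43.7, 22.2 and 0 after antimiR-452 and at 0.885, 8.46, 0 and 4.59 with scramblemiR. Its 5 high values are those of the 5 libraries high in epithelium genes.

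Hap1, a trafficking protein of neurons, had a log2 difference of 1.51 after antimiR-224 (limma adjusted p = 0.937), and the transcription factor Bhlhe22 had 0.68 after antimiR-224 and 1.27 after antimiR-452 (limma adjusted p = 0.939 and 0.981). The chloride importer Slc12a2 had WAT means of 2065 after antimiR-452 and 1282 with scramblemiR in the authors' deposited table (adjusted p = 1). Plcl2, a relative of Plcl1, had BAT means of 98.2 after antimiR-224 and 211 with scramblemiR in the authors' deposited table (adjusted p = 1).

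Between the control tissues 5 of the 26 list genes tested were higher in WAT and 7 were lower, beside 19.7% called higher and 35.7% called in either direction over all genes. The GABA transporter Slc6a13 was the farthest apart of the higher ones, with 5801 reads in WAT and 53 in BAT (log2 6.82, limma adjusted p = 0.00134). Abat (log2 3.40, limma adjusted p = 0.000249), Nlgn2, an adhesion protein of inhibitory synapses (1.01, limma adjusted p = 0.00524), and Gabbr1, a subunit of the metabotropic GABA-B receptor (0.64, limma adjusted p = 0.0276), were also higher. Bhlhe22 had 42 reads in WAT and 0 in BAT, at least 7.60-fold, and so entered the test through WAT alone. Among those lower in WAT were Slc12a2 (-1.61), the aldehyde dehydrogenases Aldh9a1 (-1.30) and Aldh5a1 (-0.77), the trafficking proteins Trak2 (-1.09) and Clptm1 (-0.78), and Gabarapl2 (-0.63).

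Over the 12 libraries of a tissue, the transcripts whose levels were most like that of Gabre were other than subunits. In WAT, among 13947 genes recovered in all 12 libraries, the highest Pearson r of log2 levels were those of Mdga1 (0.91), Igfbp3 (0.87), Slc11a2 (0.86), Wdr5 (0.85) and the pseudogene Gm6485 (0.83). Among subunits Gabrb1 came closest (r = 0.71, place 92), before Gabra4 (0.52), Gabra3 (0.42), Gabrq (0.35), Gabrg3 (0.024) and Gabrr2 (-0.17).

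In BAT, among 11626 genes, the highest r were those of Filip1l (0.98), Armcx3 (0.98), Nin (0.96), Syne1 (0.96) and Stk26 (0.96), while Gabrr2 and Gabra3, the 2 other subunits among the 11626 genes, had 0.58 and 0.50. Stk26 ranged from 2.45 to 16.6 normalised reads after antimiR-224, from 0 to 113 after antimiR-452 and from 4.43 to 39.2 with scramblemiR; its highest value was in antimiR-452 library 1, the library with 64 Gabre reads. These are descriptions over libraries of 3 treatments that share tissue makeup and scaling.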

How the data were processed

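RNA was sequenced from 24 libraries, 4 in each of 6 groups. Per the submitters' processing notes, the build was GRCm38.p4 and the authors used DESeq 1.10.1 in R 2.15.3. Which aligner, counter and annotation were used is not given in the sources used here. A directional library kit is named in the labels' protocols, and use of strand in counting is not stated. Per the file headers, each of the 4 deposited tables covers 1 inhibitor in 1 tissue, with a mean normalised signal per group of 4 libraries, the ratio of the means, its log2, a p-value and an adjusted p-value. A further deposited column, treated as a score, holds the row number of a gene per the file headers and was not used. Symbols matched 99.42% to 99.48% of identifiers.

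Whole reads per library were recovered from the means, which are printed to about 15 digits: each is a sum of 4 whole numbers divided by size factors. One solution was found for 100% of control genes and 87.6% to 90.04% of genes in the inhibitor groups, where genes with several solutions, and abundant genes above the highest mean searched, were left out. Rebuilt means matched within a relative error of 5.27e-15. A test with simulated counts recovered 0 genes wrongly. The test was limma (3.58.1, R 4.3.3), applied to log2(normalised reads + 1) with trend and robust variance. Genes needed a mean of at least 1, and p-values were adjusted by Benjamini-Hochberg over all genes, with calls at 0.05. Fold changes on this scale understate those of low genes. Comparisons with scramblemiR used the authors' size factors, the others median-of-ratios factors computed jointly. Both tissues were treated as independent samples, though they may share mice. Gabre was also tested by exact permutation. Simulated counts had the same setting of spread between libraries for every gene and changes in more abundant genes only. In them 8-fold changes were called in 82% to 100% of cases and 2-fold changes in 1% to 14%. These shares may be too high for members that are scarcer or spread more widely. Intervals of read ratios cover counting error only. Members, gene lists and tests were chosen with earlier results of these data known. The libraries left out as high in muscle genes were chosen after seeing the data. Named beside the members are subunits with a mean of at least 10, listed GABA genes with a deposited p under 0.05 or a deposited log2 ratio of at least 1 in size, the 5 nearest coding genes on each side, and the 5 genes with the highest r in each tissue.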

Additional observations from a re-analysis of the deposited data

Results flagged for a closer look

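In BAT after antimiR-452, Gabra3 was at 83.1 normalised reads in library 1, and the gap to the next of the 4 libraries made up 0.985 of the group's range. In WAT after antimiR-224, Gabrq was at 118.9 in library 3, with a gap of 0.875 of the range. Both exceed Dixon's 95% critical value for 4 libraries. They are 2 of 22 groups examined, and chance gives about 1 in 20.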

How the results depend on the processing

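The higher WAT levels of Gabre, Gabra3, Gabrq and Gabra4 in controls were called in 64 of 64 alternative fits (limma adjusted p 3.09e-05 to 0.0133). Gabra4, wherever low genes were filtered, and Gabrq, where a mean of at least 10 was required, passed the filter only through WAT. Those fits add no support for the direction. No member was called in any alternative of the other 8 comparisons. With 1 library left out, the members kept their direction in 325 of 355 fits, and under other settings in 231 of 245. Differences that changed sign are given here, and the cause was not tested. Gabre in WAT after antimiR-224 was -0.0495 without libraries high in epithelium genes. Gabre in BAT after antimiR-452 was 0.0269 with a pseudocount of 5 and 0.428 in the authors' deposited table, where Gabra3 was 0.243. Gabrq was -0.207 (antimiR-224, WAT), -0.109 (antimiR-452, WAT), -0.122 (antimiR-224 minus antimiR-452, WAT) and -0.322 (antimiR-224 effect, WAT minus BAT) without libraries rich in sperm-lineage transcripts. For antimiR-452 in WAT it was also -0.0196 with a pseudocount of 5, -0.244 in the authors' deposited table and -0.0051 with joint size factors, and for antimiR-224 in BAT -0.0080 with a pseudocount of 0.5. For antimiR-224 minus antimiR-452 in BAT, Gabra3 was -0.0682 with a pseudocount of 5, and Gabre was 0.152 without libraries high in muscle genes. Over all genes, 1384 were called for antimiR-224 in WAT and 402 for its effect between tissues without libraries rich in sperm-lineage transcripts, in place of 0, and the deposited p-values called 1. Without those libraries, only WAT antimiR-224 libraries high in epithelium genes remained in the antimiR-224 group. For the antimiR-452 effect between tissues, 1 was called with a pseudocount of 0.5 or with no filter.

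With each library left out in turn, the log2 differences ran as follows where a sign changed. For antimiR-224 against scramblemiR in WAT, Gabrq ran from -0.0752 to 0.81 and Gabra4 from -0.28 to 0.81, both lowest without scramblemiR library 4. For antimiR-452 in WAT, Gabra3 ran from -0.21 to 0.39, Gabrq from -0.45 to 0.43 and Gabra4 from -1.20 to 0.0813, and 0 to 457 genes were called, most without antimiR-452 library 4. The WAT antimiR-452 libraries left without library 4 are all high in epithelium genes. In BAT, Gabrq ran from -0.34 to 0.50 for antimiR-224 and from -0.66 to 0.0030 for antimiR-452, and Gabre from -0.83 (without antimiR-452 library 1) to 0.77 (without library 3) for antimiR-452. For antimiR-224 minus antimiR-452, Gabrq ran from -0.0528 to 0.61 in WAT and from -0.0589 to 0.89 in BAT, and Gabra3 from -0.32 to 0.92 in BAT. For effects in WAT minus BAT, Gabrq ran from -0.17 to 0.83 with antimiR-224 and from -0.0932 to 0.95 with antimiR-452, Gabre from -0.66 to 0.98 with antimiR-452, and 0 to 94 genes were called with antimiR-452, most without WAT antimiR-452 library 4.

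Leaving out libraries high in epithelium genes was not run for antimiR-452, where 1 library would remain. No paired analysis was possible because recovered libraries cannot be tied to replicate numbers. Depth limits Gabrq, Gabra4 and Gabrp in BAT, where groups held 11 reads or fewer. In the simulation, which changed more abundant genes only and set the same spread for every gene, at most 14% of 2-fold changes were called. Differences of that size would thus mostly be missed.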
